A study of Mus with 4 samples.

Results

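The genes described here are 10 genes of mitochondrial fusion, fission and mitophagy, *Mfn1*, *Mfn2*, *Opa1*, *Dnm1l*, *Mff*, *Fis1*, *Bnip3*, *Bnip3l*, *Pink1* and *Fundc1*, taken by symbol from 2 lists of m6A peaks of interscapular brown adipose tissue (iBAT). They carried 21 of the 37093 peaks in both lists together, and they are 10 of 11431 genes with a peak in either list. The mice were C57BL/6, 8 weeks old and fed normal chow. One group was Wtap flox/flox and had no Cre, and the other was BKO (Wtap flox/flox UCP1-iCre), here called *Wtap*-BKO, in which the floxed *Wtap* alleles, carried by both groups, are cut in cells that express Cre together with *Ucp1*. Each genotype gave 1 immunoprecipitate (IP) of fragmented poly(A)+ RNA with an m6A antibody and 1 input, and each sample was pooled from 8 mice. The *Ucp1*-iCre allele was present only in the knockout pool, and cells of iBAT that are not brown adipocytes keep *Wtap*. The comparison asks where the transcripts of these genes carry m6A in iBAT and whether the same stretches are listed when *Wtap* is deleted.

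Mitochondria join and divide continually. The outer membranes are fused by the GTPases MFN1 and MFN2 and the inner membranes by OPA1, while the dynamin DRP1, the product of *Dnm1l*, is recruited by adaptors such as MFF and FIS1 and pinches a mitochondrion apart. Damaged or surplus mitochondria are cleared by mitophagy, either through PINK1, a kinase that builds up on damaged mitochondria and recruits the ubiquitin ligase Parkin, or through BNIP3, NIX (the product of *Bnip3l*) and FUNDC1, receptors in the outer membrane that bind the autophagosome protein LC3. Brown adipocytes are packed with mitochondria, which divide after adrenergic stimulation. WTAP is the subunit that brings the METTL3 and METTL14 methyltransferase to nuclear RNA.

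Peaks mark places on a transcript where IP reads exceed input reads. A peak is called found, or matched, if a peak of the other genotype overlaps its exonic blocks by 1 base or more in the same orientation. Peaks were ranked within their own list by the authors' false discovery rate (FDR), and the rank is the percentage of peaks in that list with a larger FDR, so that a higher rank is a stronger peak. There was no replicate of either genotype, so no difference between genotypes was tested, and the 95% Wilson intervals given with shares cover counting error only and treat peaks as independent. Fold enrichment is IP over input within 1 genotype. The lists hold no read counts, so the depth and the transcript levels are unknown, and a gene without a peak may still be methylated below the level at which peaks were called. Positions are those of GRCm38.

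The 10 genes held 11 peaks in the Wtap flox/flox list and 10 in the *Wtap*-BKO list. *Mfn1*, *Mfn2*, *Opa1*, *Bnip3*, *Bnip3l*, *Pink1* and *Fundc1* had peaks in both lists, which is 7 of 10 genes (70%, interval 39.7% to 89.2%), beside 70.1% of all genes with a peak in either list. *Dnm1l* and *Fis1* had a peak only in the Wtap flox/flox list, 2 of 10 genes beside 15% over all genes. *Mff* had one only in the *Wtap*-BKO list, 1 of 10 beside 14.9%. Of the 11 Wtap flox/flox peaks, 6 were found in the *Wtap*-BKO list (54.5%, interval 28.0% to 78.7%), beside 67.8% of all Wtap flox/flox peaks. In the reverse direction, 6 of the 10 *Wtap*-BKO peaks had a Wtap flox/flox match (60%, interval 31.3% to 83.2%), beside 68% of all *Wtap*-BKO peaks. For these shares of genes listed and peaks matched, the values of the whole lists lay within the intervals of the 10 genes.

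Most of these peaks had low fold enrichments. In the Wtap flox/flox list 2 of the 11 peaks were above that list's median fold of 6.58, and in the *Wtap*-BKO list 1 of the 10 was above its median of 4.65. By FDR they were not weak as a group, with 5 of 11 and 5 of 10 peaks stronger than the median of their list. The 11 Wtap flox/flox peaks covered 90 to 479 exonic bases, 2399 in all, and the 10 *Wtap*-BKO peaks covered 150 to 269, 1890 in all.

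**Figure D1:**
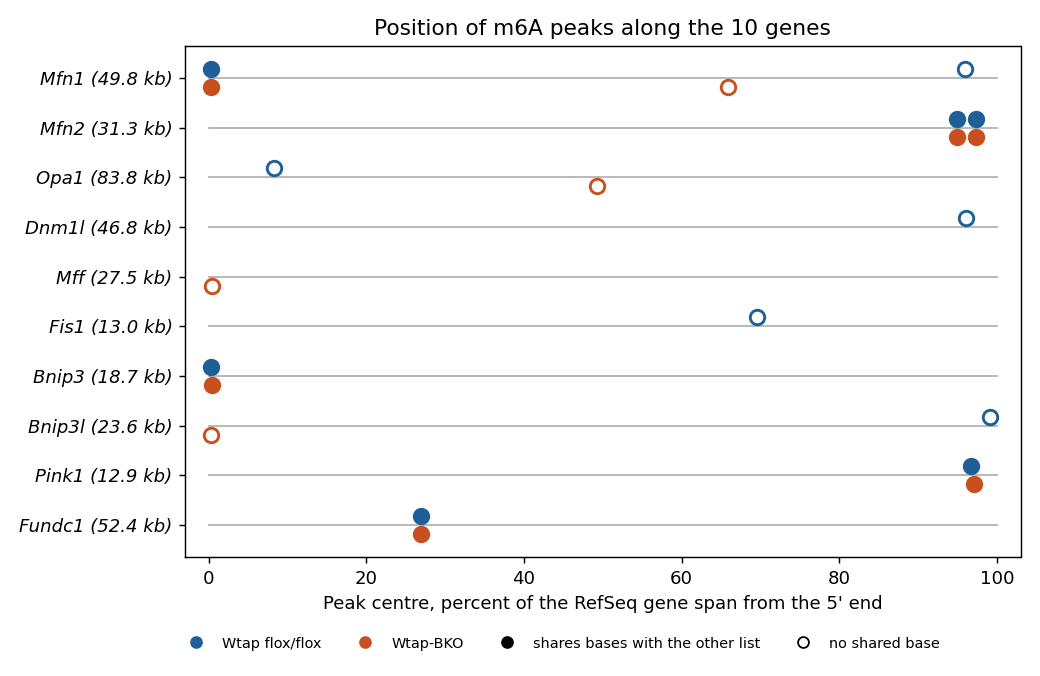
Position of the centre of each peak along its gene, in percent of the RefSeq gene span from the 5ʹ end, for Wtap flox/flox (upper, blue) and *Wtap*-BKO (lower, orange). Filled points share bases with a peak of the other list, and open points share none. The peaks of *Mfn2* and *Pink1* lay near the 3ʹ end in both lists, while *Opa1* and *Bnip3l* had open points at different places in the 2 lists.

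The outer membrane fusion gene *Mfn2* (ENSMUSG00000029020, minus strand of chromosome 4) held the strongest Wtap flox/flox peaks of the 10 genes. The *Wtap*-BKO peaks on both had far lower ranks. In Wtap flox/flox iBAT a peak of 479 bases, chr4:147874912-147875390, had an FDR given as 0, a log10 p-value of −477 and a fold enrichment of 8.22. Only 87 of the 18400 Wtap flox/flox peaks had a smaller p-value. A second peak of 329 bases, chr4:147874256-147874584, had a log10 FDR of −258 and a fold enrichment of 4.70. Their centres lay 1565 and 834 bp from the 3ʹ end of the gene, whose span is 31324 bp.

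Both *Mfn2* stretches were also listed in *Wtap*-BKO mice, but as narrower peaks inside the Wtap flox/flox ones, with low fold enrichments. By FDR both were still stronger than the median of the *Wtap*-BKO list, a log10 FDR of −6.3. Within the wider peak, the *Wtap*-BKO peak chr4:147875091-147875270 covered 180 bases, with a log10 FDR of −8.57 and a fold enrichment of 1.38. Within the other, chr4:147874345-147874494 covered 150 bases, with −12.6 and 1.51. The ranks went from 99.2 to 59.5 and from 98.9 to 69.6. In the fold enrichments of their own lists, they went from above 59.1% and 35.6% of the peaks to above 0.792% and 1.83%.

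This drop was larger than that of most matched Wtap flox/flox peaks with a rank above 95, a set that reaches below the ranks of both *Mfn2* peaks. Of 918 Wtap flox/flox peaks with a rank above 95, 855 had a *Wtap*-BKO peak on them, and the median rank of that peak was 95.5. Of the 855, 39 (4.56%) ranked as low as the *Wtap*-BKO peak on the wider *Mfn2* peak, and 72 (8.42%) as low as the one on the other. These shares leave out the rest of the 918, which had no *Wtap*-BKO peak on them at all. In width, the *Wtap*-BKO peaks were 0.376 and 0.456 times the Wtap flox/flox peaks, against a median of 0.835, and 11.2% and 17.2% of the 855 were narrowed as much. When at least 50% of the bases of a Wtap flox/flox peak had to be shared, neither *Mfn2* peak was found, and 4 of the 11 peaks remained found. The share of all Wtap flox/flox peaks found under that rule is not given here.

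*Mfn1* (ENSMUSG00000027668, plus strand of chromosome 3) is the paralogue of *Mfn2* that drives docking and fusion of the outer membranes. Its matched peak did not show such a drop, but it lay at the 5ʹ end, whereas both *Mfn2* peaks lay near the 3ʹ end. This *Mfn1* peak of 181 bases, chr3:32529495-32529675, had the same first and last base in both lists. It had the highest fold enrichment of the 10 genes in each list, 18.7 in the control and 13.7 in the *Wtap*-BKO pool, above 90.7% and 86.3% of the peaks there. Its log10 FDR was −4.71 and −5.50, ranks of 34.8 and 45.0. Among 1077 matched peaks with a Wtap flox/flox rank within 5 points of this one, the median *Wtap*-BKO rank was 46.5, so the *Mfn1* 5ʹ peak was close to the middle.

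The other *Mfn1* peaks, 1 in each list, were not matched. The Wtap flox/flox list had a peak of 91 bases, chr3:32577171-32577261, with its centre 2009 bp from the 3ʹ end, a fold enrichment of 2.28 and a log10 FDR of −5.56. The *Wtap*-BKO list had none there, and instead a spliced peak of 2 blocks between 32561504 and 32562974, with 2.32 and −2.28. The gap between them was 14196 bp of genome. Among peaks of like rank, 673 of 1821 in Wtap flox/flox mice and 1274 of 1929 (66.0%) in *Wtap*-BKO mice were unmatched too, so for the *Wtap*-BKO peak the lack of a match was the usual outcome.

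*Opa1* (ENSMUSG00000038084, plus strand of chromosome 16), the GTPase of the inner membrane, had 1 peak in each list and no base in common. The Wtap flox/flox peak chr16:29586079-29586259 lay 6888 bp from the 5ʹ end, with an enrichment of 2.18-fold and a log10 FDR of −5.54. The *Wtap*-BKO peak, of 2 blocks between 29620410 and 29620856, lay 34150 bp downstream, with 1.75 and −3.50. *Opa1* and *Bnip3l* were the 2 of the 7 genes here with peaks in both lists but no shared base (28.6%, interval 8.22% to 64.1%), beside 6.13% of all such genes. These shares are not alike, since 1 matched peak takes a gene out of the count. Listed genes held on average 1.89 Wtap flox/flox and 1.92 *Wtap*-BKO peaks, whereas *Opa1* and *Bnip3l* held 1 in each list. The peaks concerned were not strong. Of the Wtap flox/flox peaks within 5 points of the rank of this *Opa1* peak, 37.1% had no *Wtap*-BKO peak on them, and of *Wtap*-BKO peaks near the rank of the other, 50.2% had no Wtap flox/flox peak on them.

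**Figure D2:**
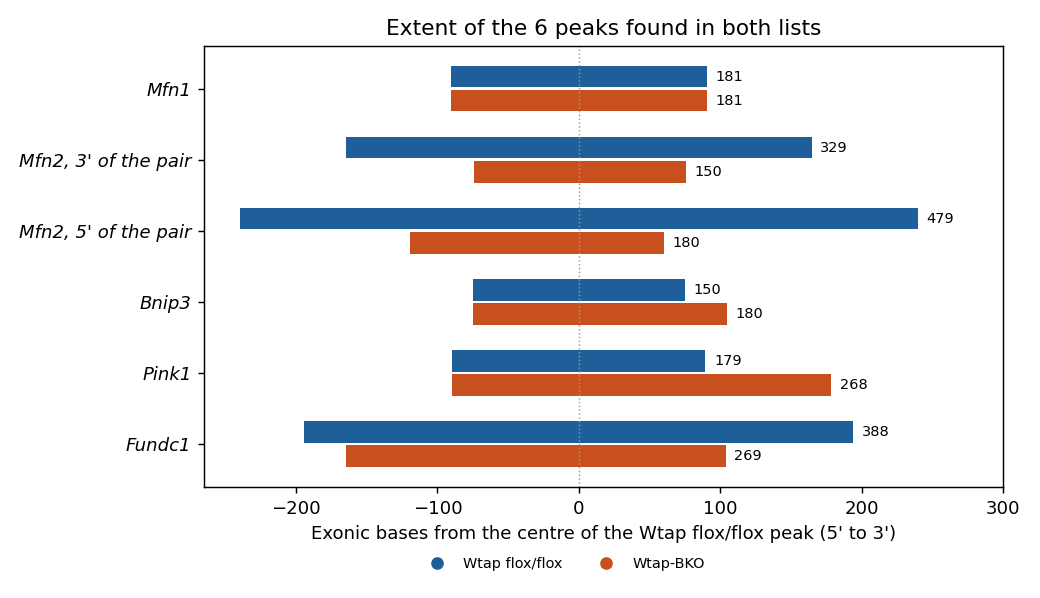
Extent of the 6 peaks found in both lists, in exonic bases from the centre of the Wtap flox/flox peak, read 5ʹ to 3ʹ, with the number of bases at the end of each bar. Both *Mfn2* peaks and the *Fundc1* peak were narrower in *Wtap*-BKO mice, *Bnip3* and *Pink1* were wider, and *Mfn1* was the same.

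The fission genes had 1 peak each, and none of these 3 was matched, beside the 67.8% and 68% of all peaks that were. In a list of 64 further genes of these processes, 11 genes of fission and its control had a peak. All 11 had one in both lists, beside 70.1% of all genes with a peak in either. Of their peaks, 15 of 20 in the Wtap flox/flox and 18 of 20 in the *Wtap*-BKO list were matched. *Dnm1l* (ENSMUSG00000022789, minus strand of chromosome 16), which encodes the scission GTPase DRP1, had 1 Wtap flox/flox peak of 241 bases in 2 blocks between 16313844 and 16314304. Its centre lay 1846 bp from the 3ʹ end, its fold enrichment was 3.68 and its log10 FDR −16.0, a rank of 68.1. The *Wtap*-BKO list held no peak on *Dnm1l* at all. Among 1826 Wtap flox/flox peaks within 5 points of this rank, 336 (18.4%) had no *Wtap*-BKO peak on them, and *Dnm1l* was the strongest of the 10 genes' unmatched peaks.

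*Fis1* (ENSMUSG00000019054, plus strand of chromosome 5), an outer membrane adaptor, had 1 Wtap flox/flox peak of 90 bases in 2 blocks between 136962145 and 136962438. It was close to the threshold of the list, with a log10 FDR of −1.77 where the weakest listed peak had −1.35, and its fold enrichment was 1.89. No *Wtap*-BKO peak was listed, and 62.6% of Wtap flox/flox peaks of like rank had none either.

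*Mff* (ENSMUSG00000026150, plus strand of chromosome 1), the main adaptor of DRP1, had no Wtap flox/flox peak. The *Wtap*-BKO list had 1 peak of 151 bases at the 5ʹ end, chr1:82724920-82725070, with an enrichment of 2.39-fold and a log10 FDR of −8.25, a rank of 58.3. Of 1866 *Wtap*-BKO peaks of like rank, 456 (24.4%) had no Wtap flox/flox peak on them. The *Mff* peak was the only one of the 21 peaks that another gene's peak of the same list overlapped. On the minus strand, a *Wtap*-BKO peak of an unnamed gene (ENSMUSG00000097564) shared 142 of the bases, with a fold enrichment of 1.82. The library kit is not described as stranded, so reads of *Mff* and of this antisense gene may not be told apart and the assignment is uncertain.

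The mitophagy genes moved in both directions. *Pink1* (ENSMUSG00000028756, minus strand of chromosome 4) had 1 peak in each list, both ending at 138313914 and centred 416 and 372 bp from the 3ʹ end. The Wtap flox/flox peak covered 179 bases from 138313736, with an enrichment of 1.47-fold and a log10 FDR of −8.32. The *Wtap*-BKO peak covered 268 bases from 138313647, with 2.15 and −28.7. Its rank of 86.5, against 51.9 in Wtap flox/flox mice, made it the strongest *Wtap*-BKO peak of the 10 genes. Among 1282 matched peaks of like Wtap flox/flox rank, 94.2% had a lower *Wtap*-BKO rank than *Pink1*.

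*Bnip3* (ENSMUSG00000078566, minus strand of chromosome 7), a receptor induced by hypoxia, had 1 peak in each list at the 5ʹ end, both ending at 138909519. The Wtap flox/flox peak had 150 bases, a fold enrichment of 2.23 and a log10 FDR of −3.93. The *Wtap*-BKO peak reached 30 bases further into the gene, with 3.41 and −8.93, and its rank was 60.6 against 28.0. Of 1014 matched peaks of like Wtap flox/flox rank, 72.3% had a lower *Wtap*-BKO rank.

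*Bnip3l* (ENSMUSG00000022051, minus strand of chromosome 14), its paralogue, had peaks at opposite ends of the gene. The Wtap flox/flox peak of 90 bases, chr14:66985389-66985478, was centred 196 bp from the 3ʹ end, with an enrichment of 1.56-fold and a log10 FDR of −2.00. The *Wtap*-BKO peak of 151 bases, chr14:67008727-67008877, ended at the first base of the RefSeq gene, with 2.43 and −3.34. Both were weak, with ranks of 3.70 and 24.6, and 62.6% and 52.0% of peaks of like rank in their lists were also not found in the other.

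*Fundc1* (ENSMUSG00000025040, minus strand of chromosome X), a receptor for hypoxic mitophagy, had 1 spliced peak in each list across the same exon junction. The Wtap flox/flox peak covered 388 bases between 17557695 and 17558751, with an enrichment of 4.77-fold and a log10 FDR of −28.0. The *Wtap*-BKO peak covered 269 bases, all within it, with 2.14 and −4.86. The rank went from 80.0 to 40.6, and 9.60% of 1604 matched peaks of like Wtap flox/flox rank were lower. Its distance from the gene ends is not given in the text, because the RefSeq span of 52363 bp reaches far past the peak in the 3ʹ direction.

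**Figure D3:**
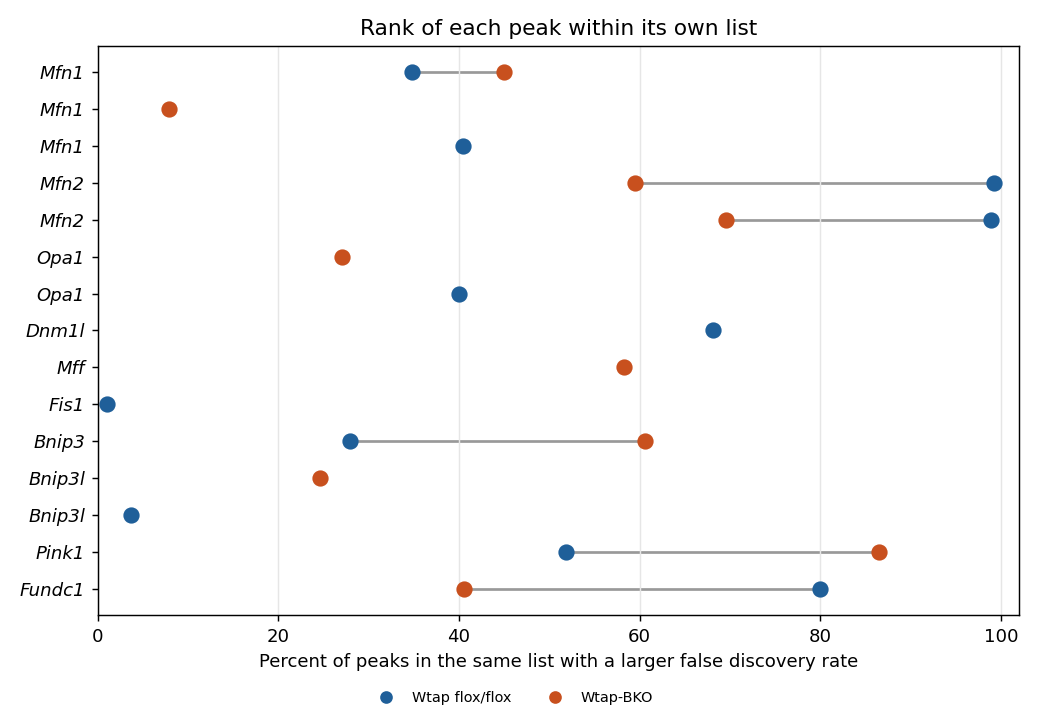
Rank of each of the 21 peaks within its own list, as the percentage of peaks of that list with a larger false discovery rate, with a line joining peaks that share bases. *Mfn2* and *Fundc1* were lower in *Wtap*-BKO (orange) than in Wtap flox/flox mice (blue), and *Pink1*, *Bnip3* and the 5ʹ peak of *Mfn1* were higher.

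Over the 6 matched peaks, 3 had a lower rank in the *Wtap*-BKO than in the Wtap flox/flox list, both of *Mfn2* and that of *Fundc1*, and 3 had a higher one. The same 3 were the narrower ones, beside 47.8% of matched peaks in the whole list. Over all 12483 matched Wtap flox/flox peaks, 43.6% had a lower *Wtap*-BKO rank. When peaks were ranked by fold enrichment, the 5ʹ peak of *Mfn1* also had a lower rank, 4 of 6 in all, beside 48.9% of all matched peaks. The 12 first and last bases of the 6 pairs differed by 0 to 179 bp, and each difference was within 1 base of a multiple of 30 bp, so the lists resolve the edge of a peak only in steps of that size.

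**Figure D4:**
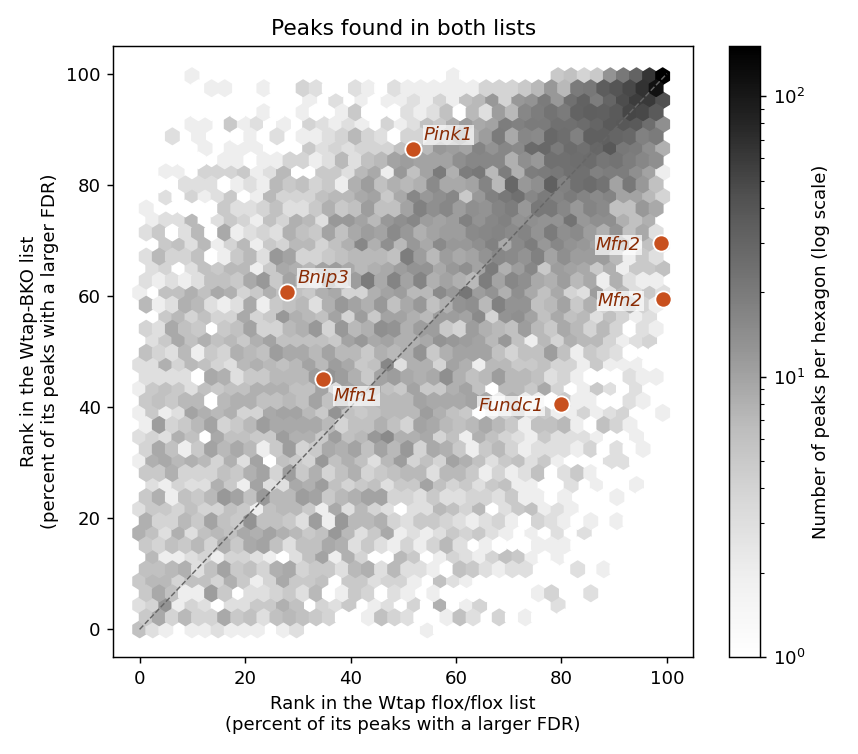
Rank of each of the 12483 Wtap flox/flox peaks with a *Wtap*-BKO peak on it (horizontal) against the rank of that peak (vertical, the strongest where there were several), as hexagons shaded by number on a log scale, with the 6 peaks of the genes here as orange points. The dashed line marks equal ranks. Both *Mfn2* peaks and *Fundc1* lie well below it, and *Pink1* and *Bnip3* above it.

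By place, 3 of 11 Wtap flox/flox peaks were centred in the last 1000 bp of the gene, 1 each of *Pink1*, *Bnip3l* and *Mfn2* (27.3%, interval 9.75% to 56.6%), beside 20.8% of all Wtap flox/flox peaks. In the *Wtap*-BKO list there were 2 of 10, of *Pink1* and *Mfn2*, beside 18.5%. The first 1000 bp held 2 Wtap flox/flox peaks, of *Mfn1* and *Bnip3*, beside 10.1% of the list. In *Wtap*-BKO mice there were 4, of *Mfn1*, *Bnip3*, *Bnip3l* and *Mff* (40%, interval 16.8% to 68.7%), beside 11.3%. The same peaks lay in the first 500 bp, where 7.54% of all control and 8.58% of all *Wtap*-BKO peaks were centred. The last 500 bp held 2 Wtap flox/flox peaks (10.9% of the list) and 1 *Wtap*-BKO peak (9.46%), and the last 2000 bp held 5 (36.5%) and 3 (33.3%). Among the 9 genes listed in Wtap flox/flox mice, 5 had an unmatched peak there (*Mfn1*, *Opa1*, *Dnm1l*, *Fis1* and *Bnip3l*), beside 46.1% of all genes. Among the 8 listed in *Wtap*-BKO mice, 4 had an unmatched peak (*Mfn1*, *Opa1*, *Mff* and *Bnip3l*), beside 47.7%.

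The 64 further genes were examined in the same way. Of these, 51 had a peak in either list. In both lists there were 42, beside 70.1% of all genes with a peak in either. Another 4 were listed in Wtap flox/flox mice only, beside 15%, and 5 in *Wtap*-BKO mice only, beside 14.9%. Of their 79 Wtap flox/flox peaks, 58 (73.4%) were found in the *Wtap*-BKO list, beside 67.8% of all peaks. In 37 of the genes a *Wtap*-BKO peak lay on the strongest Wtap flox/flox peak, and its rank was lower for 26 of the 37, beside 49.5% of all genes compared in this way.

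The 4 genes with a peak in Wtap flox/flox mice only were *Ulk1*, *Pld6*, *Csnk2a1* and *Apool*. *Ulk1*, the kinase that starts autophagy and acts on FUNDC1, had 2 Wtap flox/flox peaks, the stronger of them at chr5:110785654-110786192 with 539 bases, a fold enrichment of 3.82 and a log10 FDR of −33.1. *Pld6*, a lipase of the outer membrane that takes part in fusion, had 1 peak with 7.49 and −10.9. *Csnk2a1*, a kinase subunit that phosphorylates FUNDC1, had its strongest peak with 14.6 and −7.00, and *Apool*, a cristae protein, had 3.45 and −6.76. Among the 5 listed for *Wtap*-BKO mice alone, the 4 strongest were *Fkbp8* (log10 FDR −5.72), a receptor of mitophagy, *Miga2* (−4.62), which promotes fusion, *Nipsnap1* (−2.71), a signal for mitophagy, and *Parl* (−2.06), a protease that cleaves PINK1. By rank within their own lists the 2 sets met only at *Fkbp8* (46.9), which was level with *Csnk2a1* (47.1) and *Apool* (46.2). *Ulk1* (83.1) and *Pld6* (58.7) were higher, and *Miga2* (38.5), *Nipsnap1* (15.2) and *Parl* (4.93) were lower.

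Of the genes with peaks in both lists, *Chchd3*, *Akap1* and *Gabarapl1* had the strongest Wtap flox/flox peaks. *Chchd3*, a subunit of the MICOS complex of the cristae, had a peak of 510 bases with an FDR given as 0 and a fold enrichment of 5.07, and its *Wtap*-BKO counterpart had 90 bases, a log10 FDR of −5.60 and a fold enrichment of 1.22. *Akap1*, which anchors protein kinase A on the outer membrane where it inhibits DRP1, had a peak of 1195 bases with an FDR given as 0, and the strongest *Wtap*-BKO peak on it kept a log10 FDR of −144 over 479 bases. *Gabarapl1*, of the LC3 family, had −318 and −111. Of these 3 peaks, only that of *Chchd3* fell in rank as *Mfn2* did, from 99.2 to 45.8. The *Wtap*-BKO ranks of the others were 98.7 and 97.9. Another *Wtap*-BKO peak of *Chchd3*, at a different place, was stronger, with a log10 FDR of −26.2 and a rank of 85.0.

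**Figure D5:**
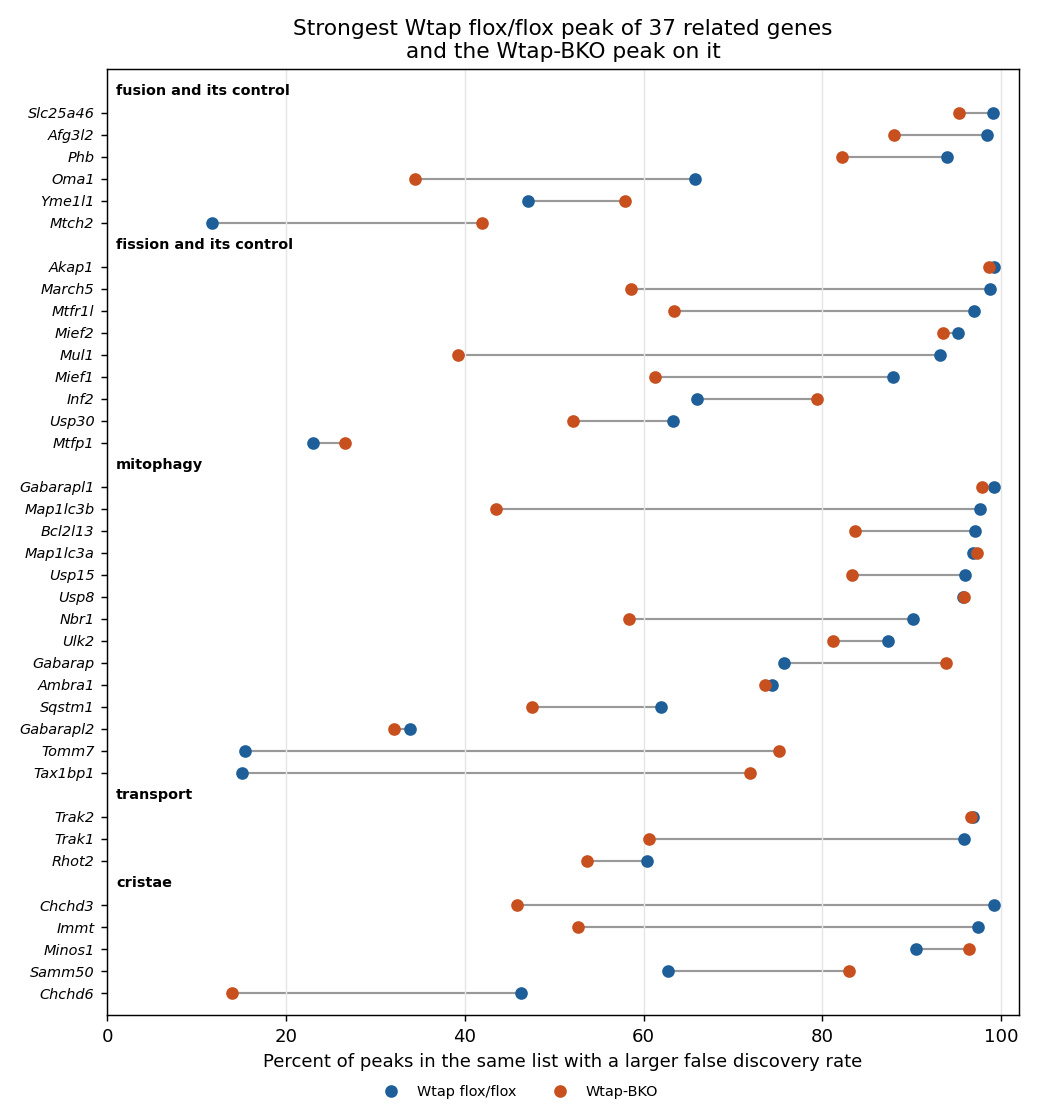
Rank of the strongest Wtap flox/flox peak (blue) of 37 related genes and of the *Wtap*-BKO peak on it (orange), as the percentage of peaks in the same list with a larger false discovery rate, grouped by role. The *Wtap*-BKO rank was lower for 26 of the 37 genes.

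The tissue could be checked only by which marker transcripts carried peaks. All 13 brown adipocyte markers, *Ucp1* among them, had a peak in Wtap flox/flox mice and 12 in *Wtap*-BKO mice, where *Elovl3* had none. Other cell types differed more. Macrophage markers with a peak went from 4 to 7 of 8 genes, T/B lymphocyte markers from 0 to 3 of 8 and skeletal muscle markers from 4 to 8 of 9, while fibroblast (6 of 6) and endothelial (4 of 4) markers had one in both lists. The part of this in the results above was not tested, and fewer brown adipocytes and less of a transcript in each of them cannot be told apart in whole tissue. *Wtap* itself had 4 peaks in each list, all of them matched, which do not measure how much *Wtap* transcript was present.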

How the data were processed

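MeRIP-seq was performed by the authors on iBAT, with 1 pooled IP and 1 pooled input per genotype (4 samples). The submitters' processing notes name fastp 0.19.11, BWA 0.7.12, HOMER 4.9.1 and GRCm38.p6, and the study's methods name MACS2 as peak caller. Some deposited peaks are spliced blocks on Ensembl genes, a layout that exomePeak writes, so which caller made the FDR, the fold enrichment and the peak edges is not settled here. The deposited lists give, per peak, the authors' p-value, 2 scores (the p-value and the FDR as log10) and a fold enrichment (ratio of IP over input). How libraries were scaled is not given in the sources used here. The FDR was given as 0 for 147 peaks of Wtap flox/flox mice and 83 of *Wtap*-BKO mice.

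Members were the entries with 1 of the 10 symbols. Peaks were matched by shared bases of their blocks (Python 3.11.15, numpy 2.4.6, pandas 2.3.3, scipy 1.17.1, matplotlib 3.10.9). The matching code was run on altered copies of listed Wtap flox/flox peaks, which checks only that it works as written. Starts were written 1-based. Gene ends came from RefSeq (GRCm38.p6), and all 10 symbols matched. Shares near gene ends used peaks centred inside genes of at least 3000 bp. All 10 members were named, and from the 64 further genes the 4 strongest in each list alone and the 3 strongest in both. Genes, lists and settings were chosen with earlier results of these data known. Exon structure, motifs and sequences were not analysed here, and supplementary tables were not used.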

Additional observations from a re-analysis of the deposited data

How the results depend on the processing

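Of 44 recomputed counts, 34 stayed within 1.5 times the reported count, and 10 did not. Some of the 34 could not change, because the number of genes with peaks in both lists does not depend on how peaks are matched. Counts under an FDR limit come from fewer peaks or genes, so they fall partly for that reason. Whole-list shares under the changed matching rules and FDR limits are not given here. These counts therefore do not show whether the 10 genes differ from other genes. With an FDR under 1e-05 in both lists, 3 of 7 Wtap flox/flox peaks and 3 of 6 *Wtap*-BKO peaks were found in the other list (both of *Mfn2* and that of *Pink1*), and 3 of 8 genes had a peak in both lists. With that limit only on the peaks searched for, 3 of 6 genes had a Wtap flox/flox peak that was not found. In the *Wtap*-BKO list 1 of 5 genes (*Mff*) had such a peak. For genes with peaks in both lists, both of these FDR settings limited both lists, so their count was 3 of 8 each time. With any peak on the same gene counted as found, the genes with an unfound peak were 2 of 9 (*Dnm1l* and *Fis1*) and 1 of 8 (*Mff*). The last 2000 bp of the genes held 5 Wtap flox/flox peaks, and the last 500 bp 1 *Wtap*-BKO peak. Ranked by fold enrichment, the *Wtap*-BKO minus Wtap flox/flox difference of the 5ʹ peak of *Mfn1* was −4.43 points instead of 10.2, and the other 5 pairs kept their direction. The cause of these changes was not tested. The planned motif count was not run, since no genome sequence was used here. No paired analysis was possible because each genotype had 1 pool and no test was made. The read depth behind the lists is unknown, which limits what a missing peak shows.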

Other observations

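At their strongest Wtap flox/flox peak, other genes of the 64 showed changes of rank as large as those of *Mfn2* and *Pink1*. They were chosen after their values were seen, and each value describes 1 pool per genotype. *March5*, an outer membrane ubiquitin ligase that acts on fission and fusion proteins, had a Wtap flox/flox peak of 420 bases with a log10 FDR of −248 and a fold enrichment of 5.50, and the matching *Wtap*-BKO peak had 150 bases, −8.31 and 1.37. The strongest Wtap flox/flox peak of *Map1lc3b*, which encodes the LC3B protein that mitophagy receptors bind, had −156 and a fold enrichment of 3.53. The *Wtap*-BKO peak on it had −5.27 and 1.64. That of *Immt*, the core subunit of MICOS, had −143 and 2.37, against −6.83 and 1.26. The ranks of these peaks went from 98.8 to 58.6 for *March5*, from 97.7 to 43.5 for *Map1lc3b* and from 97.4 to 52.7 for *Immt*. *Map1lc3b* and *Immt* had a stronger *Wtap*-BKO peak elsewhere, with −16.5 for *Map1lc3b* and −49.6 for *Immt*, ranks of 76.2 and 92.9.

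In the other direction, *Tomm7*, a small subunit of the outer membrane translocase that stabilises PINK1, had a Wtap flox/flox peak of 149 bases with a log10 FDR of −2.90 and a fold enrichment of 2.01. The *Wtap*-BKO peak on it had 415 bases, −15.7 and 4.19. *Tax1bp1*, an autophagy adaptor that binds ubiquitin, went from −2.87 over 181 bases to −13.7 over 389 bases. By rank, *Tomm7* went from 15.5 to 75.1 and *Tax1bp1* from 15.1 to 71.9. The lists share no scale between genotypes, so each FDR and fold enrichment describes a peak within its own genotype. They are not changes in methylation.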
